A study of Homo sapiens with 6 samples.

Results

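Subtelomeric peaks of nascent DNA are described here, the peaks of newly replicated DNA whose midpoint lay within 3 Mb of a chromosome end. They were taken from 2 consensus lists, one for control and one for ERCC6L2-/- cells, on chromosomes 1 to 22 and X by their hg38 lengths. The starts of chromosomes 13, 14, 15, 21 and 22, which are short arms of repeated DNA, were left out, so that 41 ends were counted. The rule took 1366 of the 10285 control peaks and 1237 of the 8555 ERCC6L2-/- peaks, 2603 of 18840 in all. A peak was called shared where it overlapped a peak of the other list by at least 1 base, and list-specific where it did not. The member of each list farthest from an end lay at 20q, 2.99973 Mb (control) and 2.99975 Mb (ERCC6L2-/-) from the end, and the nearest peak outside it lay at 7q, at 3.00096 and 3.00092 Mb. All of these were shared.

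The study compared U2OS cells, a human osteosarcoma line, with U2OS cells in which ERCC6L2 was disrupted by CRISPR/Cas9, with 3 samples of each genotype. ERCC6L2 is an ATPase of the SNF2 family, whose members move along or remodel DNA-bound protein. Both genotypes were given BrdU, which cells take up in place of thymidine when they copy DNA, for 2 h, and labelled DNA was immunoprecipitated and sequenced. The knockout lines were grown from single cells, and which clone gave these samples is not given in the sources used here. Each list merges the 3 samples of a genotype, so a list is a single observation. No p-value is given, the 95% intervals cover counting error only, and a difference between the lists cannot be told apart from one between the clones or sample sets behind them. Sample depth is unknown here.

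A human chromosome ends in a telomere, a long array of TTAGGG repeats whose G-rich strand runs toward the end. Beside it lies the subtelomere, a patchwork of degenerate telomere repeats and segments copied between chromosomes, followed by gene-rich, GC-rich DNA with many tandem repeats. Repeated DNA of this kind is known as hard to replicate, and the telomere itself is copied largely by forks that start in or near the subtelomere. U2OS cells lack telomerase and keep their telomeres by recombination between them.

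Of 3 kinds of repeated DNA described here, only tandem repeats were in most peaks, 63.5 to 74.8% of each class. These shares include units under 10 bases, which match at multiples of their length. With a smallest period of 10 bases or more, they were 46.7 to 65.6%. Purine tracts were in 6.75 to 18.2% of a class. The first kind is telomere repeat, arrays of TTAGGG copies or, read on the other strand, CCCTAA copies. It was in 2.87% of shared control peaks, in 2 of 154 ERCC6L2-/--specific peaks and in 0 of 285 control-specific peaks. Sequences of the other kinds follow, each read from the plus strand of hg38.

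The second kind is the tandem repeat with a unit longer than that of a microsatellite, here with 1 period of the repeat in capitals. The longest stretch in a shared control peak was 5026 bases with a period of 50 bases, in a control-specific peak 3445 bases with a period of 32 bases, and in an ERCC6L2-/--specific peak 2801 bases with a period of 74 bases. The control-specific peak nearest to an end, 7.06 kb from PLEKHG4B, was made of a repeat with a period of 30 bases over its whole 1734 bases. The control-specific peak with the longest stretch lay in an intron of an annotated coding gene that has no name (ENSG00000286001), and the other 3 lay outside coding genes.
shared peak at 3q, chr3:198099699-198099938: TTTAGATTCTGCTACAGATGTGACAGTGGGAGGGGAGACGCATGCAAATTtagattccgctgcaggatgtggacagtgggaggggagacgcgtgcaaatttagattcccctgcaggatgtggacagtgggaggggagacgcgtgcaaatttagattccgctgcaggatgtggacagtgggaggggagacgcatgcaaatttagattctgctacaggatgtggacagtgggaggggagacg
control-specific peak nearest to an end, at 5p, chr5:84119-84358: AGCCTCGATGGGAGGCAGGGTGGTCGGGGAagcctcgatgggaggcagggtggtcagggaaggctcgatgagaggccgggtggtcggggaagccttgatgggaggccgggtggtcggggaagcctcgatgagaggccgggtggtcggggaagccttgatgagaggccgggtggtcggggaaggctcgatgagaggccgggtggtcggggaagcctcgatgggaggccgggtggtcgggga
control-specific peak with the longest repeat, at 5p, chr5:258898-259137: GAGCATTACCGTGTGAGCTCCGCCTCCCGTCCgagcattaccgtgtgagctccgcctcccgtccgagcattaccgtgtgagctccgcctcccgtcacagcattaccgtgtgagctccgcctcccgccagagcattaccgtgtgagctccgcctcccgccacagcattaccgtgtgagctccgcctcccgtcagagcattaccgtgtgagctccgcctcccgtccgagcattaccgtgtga
ERCC6L2-/--specific peak at 18q, chr18:79033563-79033802: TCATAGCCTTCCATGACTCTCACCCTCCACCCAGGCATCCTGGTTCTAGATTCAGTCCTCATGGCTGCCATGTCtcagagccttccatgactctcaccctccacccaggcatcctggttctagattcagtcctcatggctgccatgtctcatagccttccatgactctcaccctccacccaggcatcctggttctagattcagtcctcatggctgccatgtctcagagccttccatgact

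The third kind is the purine tract, a run of at least 30 bases that are all A or G on one strand, shown in capitals. The longest in a shared control peak was 1303 bases, in introns of ADAP1 and COX19. The longest in an ERCC6L2-/--specific peak was 157 bases, and the one shown, 145 kb from TAFA5, was 154 bases. The 120 bases at the middle of each tract shown are printed.
shared peak at 7p, chr7:905948-906067: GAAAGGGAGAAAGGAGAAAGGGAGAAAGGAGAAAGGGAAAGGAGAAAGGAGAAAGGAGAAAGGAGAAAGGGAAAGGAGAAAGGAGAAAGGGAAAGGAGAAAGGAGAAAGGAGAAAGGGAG
ERCC6L2-/--specific peak at 22q, chr22:48996448-48996567: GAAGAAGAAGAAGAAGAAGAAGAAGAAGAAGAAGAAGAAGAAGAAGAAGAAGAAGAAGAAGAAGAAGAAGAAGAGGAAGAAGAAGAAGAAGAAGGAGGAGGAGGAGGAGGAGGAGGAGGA

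Fewer subtelomeric peaks were list-specific than peaks of the rest of the arms, by far more in the control list than in the ERCC6L2-/- list. In the control list 285 of 1366 subtelomeric peaks were list-specific, 20.9% (95% Wilson interval 18.8 to 23.1%), where 33.7% of all control peaks of these chromosomes were. In the ERCC6L2-/- list 154 of 1237 were, 12.4% (10.7 to 14.4%), where 19.5% of all peaks were. The remaining 1081 control and 1083 ERCC6L2-/- peaks overlapped each other. Beyond 3 Mb and outside alpha-satellite, the repeat of centromeres, 39.1% of 7254 control peaks (37.97 to 40.2%) and 15.3% of 5232 ERCC6L2-/- peaks (14.3 to 16.3%) were list-specific.

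The control share was 18.2 percentage points lower in the subtelomeres than in the rest of the arms, a difference of -18.2 points (95% Newcombe interval -20.6 to -15.7), and it was lower on 22 of 23 chromosomes. The ERCC6L2-/- difference was -2.82 points (-4.82 to -0.65), with a lower share on 15 of 23 chromosomes. Set against peaks 3 to 10 Mb from an end alone, the control difference was -8.63 points and the ERCC6L2-/- difference was 0.43 points (-2.07 to 2.96), so the sign of the latter depends on the comparison. In a zone of 1 Mb the ERCC6L2-/- difference was -0.24 points (-3.51 to 3.68), and among peaks at the score ceiling it was -1.43 points (-3.12 to 0.60). It was larger with alpha-satellite kept in the rest, -8.29 points (-10.3 to -6.12), and among single-copy peaks, -5.58 points (-7.93 to -2.87). There were 0.906 ERCC6L2-/- peaks for each control peak in the subtelomeres and 0.721 in the rest of the arms. Shared counts of a zone are nearly equal in the lists, since they are counted by overlap. The contrast between the lists in these differences therefore restates list sizes at unknown depth.

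**Figure D1:**
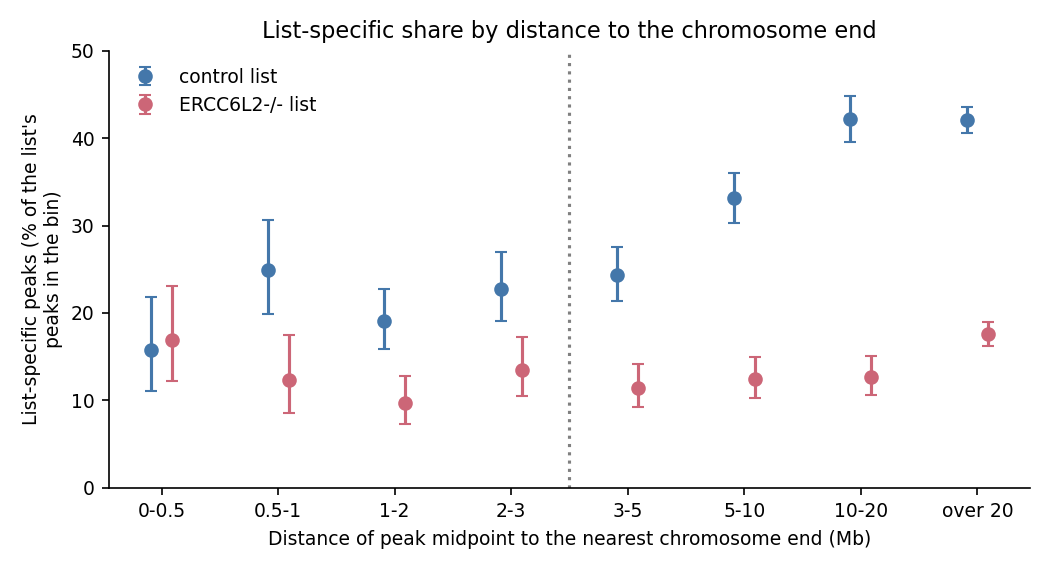
Points give the share of a list's peaks that were list-specific (%), by the distance of the peak midpoint to the nearest counted chromosome end (Mb), with 95% Wilson intervals as bars and a dotted line at 3 Mb. Alpha-satellite is left out. The control points rise from 15.7% in the outermost 0.5 Mb to 42.1% beyond 20 Mb, while the ERCC6L2-/- points stay between 9.76% and 17.6%. Shared counts of a bin are nearly equal in the lists, so the gap between their points restates list sizes.

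By distance, the lists came closest at the very ends. In the outermost 0.5 Mb, 28 of 178 control peaks were list-specific, 15.7% (11.1 to 21.8%), and 31 of 183 ERCC6L2-/- peaks, 16.9% (12.2 to 23.04%). Here the ERCC6L2-/- list held more list-specific peaks than the control list, by 3 peaks, and the intervals of the shares overlapped. From 0.5 to 1 Mb the shares were 24.9% (61 of 245) and 12.4% (26 of 210), with intervals of 19.9 to 30.7% and 8.59 to 17.5% that did not overlap. From 1 to 2 Mb they were 19.05% (96 of 504, 15.9 to 22.7%) and 9.76% (44 of 451, 7.35 to 12.8%). From 2 to 3 Mb they were 22.8% (100 of 439, 19.1 to 26.9%) and 13.5% (53 of 393, 10.5 to 17.2%). The control share outranked the other in 3 of the 4 bins. Shared counts of a bin are nearly equal in the lists, since they are counted by overlap. The list with more peaks in a bin therefore has the higher share, and this ranking restates list sizes at unknown depth. Further in, the control share was 24.3% at 3 to 5 Mb, 33.1% at 5 to 10 Mb and 42.2% at 10 to 20 Mb, and the ERCC6L2-/- share was 11.5%, 12.4% and 12.7%.

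Subtelomeres were dense in peaks in both genotypes. They made up 4.26% of the known bases compared and held 15.8% of the control and 19.1% of the ERCC6L2-/- peaks. The control list had 11.3 peaks per Mb of known bases there and 2.67 per Mb in the rest of the arms, a ratio of 4.24 (95% interval 3.999 to 4.49). The ERCC6L2-/- list had 10.2 and 1.93 per Mb, a ratio of 5.32 (5.00 to 5.66). Density fell over the next megabases, and against 3 to 10 Mb alone the ratios were 1.85 and 2.09. Shared peaks were at 8.96 (control) and 8.97 (ERCC6L2-/-) per Mb in the subtelomeres and at 1.63 per Mb in the rest for each list, the lists being alike here because shared peaks are counted by their overlap. Control-specific peaks were at 2.36 per Mb in the subtelomeres and 1.04 per Mb in the rest. ERCC6L2-/--specific peaks were at 1.28 and 0.294 per Mb.

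**Figure D2:**
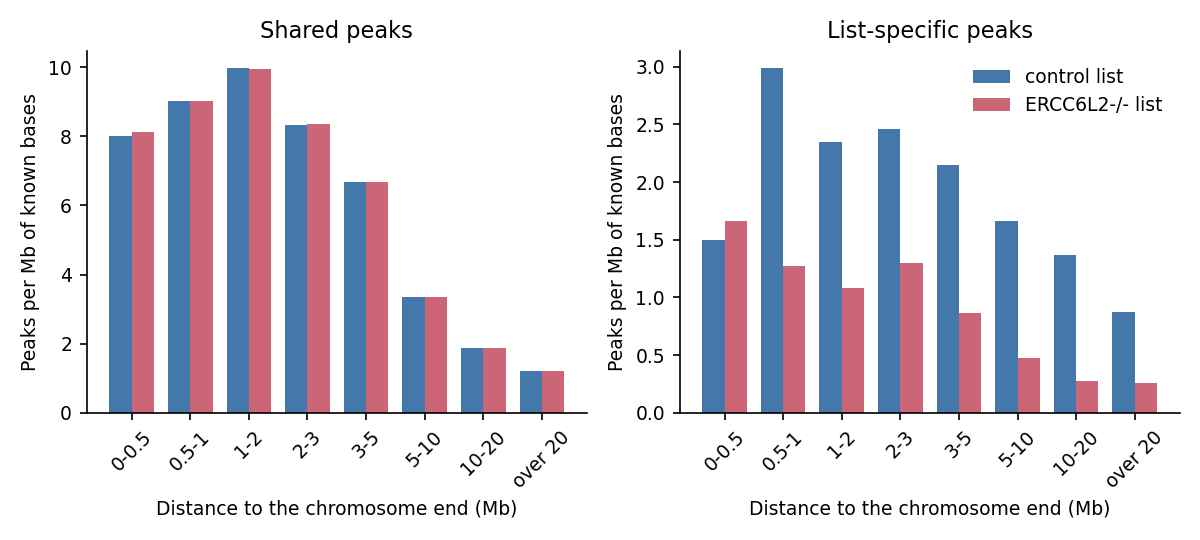
Bars give peaks per Mb of known bases (vertical axes, which differ between panels) for shared peaks (left) and list-specific peaks (right), by distance to the nearest counted chromosome end (Mb), in the control and ERCC6L2-/- lists. Among the bins drawn, shared peaks are densest at 1 to 2 Mb, at 9.98 (control) and 9.95 (ERCC6L2-/-) per Mb, and ERCC6L2-/--specific peaks are densest in the outermost 0.5 Mb, at 1.66 per Mb.

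List-specific members were the weaker and narrower peaks of each list. Peaks carry a score, the −log10 p-value after merging, which has a ceiling: above 310.6 it is written as infinite. In the control list 39.3% of list-specific and 84.3% of shared subtelomeric peaks were at the ceiling, and in the ERCC6L2-/- list 27.3% and 66.5% were. Median widths were 617 bases (control-specific), 859 bases (shared, control), 610.5 bases (ERCC6L2-/--specific) and 810 bases (shared, ERCC6L2-/-). The median gap from a list-specific member to the nearest peak of the other list was 27.06 kb for control-specific and 24.02 kb for ERCC6L2-/--specific peaks. Of 285 control-specific peaks 6 lay within 1 kb of such a peak, 63 within 10 kb and 252 within 100 kb, and of 154 ERCC6L2-/--specific peaks 2, 35 and 136 did.

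Where 1 control peak met 1 ERCC6L2-/- peak, they marked nearly the same place. In 1076 such pairs the overlap was a median 92.2% of the joint span, and the midpoints were a median 20 bases apart. The ERCC6L2-/- peak was a median 0.974 times as wide as the control peak (quartiles 0.911 and 1.01), and the control peak was the wider in 727 pairs and the narrower in 346. Both were at the score ceiling in 691 pairs, the control peak alone in 215 and the ERCC6L2-/- peak alone in 27. Scores rise with read depth, which is unknown here, and the part of depth in these counts was not tested.

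Chromosome ends differed widely. An end held between 3 and 74 control peaks (median 26) and between 3 and 76 ERCC6L2-/- peaks (median 24). Control-specific peaks outnumbered ERCC6L2-/--specific ones at 25 ends, the reverse held at 14, and the counts were equal at 2. The 6 ends with most control-specific peaks held 41.8% of them, and the 6 with most ERCC6L2-/--specific peaks held 37.0% of those.

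The ends with the highest counts of control-specific peaks were 5p (26 of 68 control peaks), 7q (23 of 70), 13q (23 of 74), 6q (17 of 53), 10q (16 of 65) and 20p (14 of 23). At these ends the ERCC6L2-/- list had 4, 6, 4, 1, 5 and 0 list-specific peaks. The end 20p was the one in this group where most control peaks had no counterpart. Its ERCC6L2-/- peaks numbered 9, all shared, and 0 of 9 allows a share of up to 33.3%. Its 14 control-specific peaks lay 0.221 to 2.85 Mb from the end, 6 held a purine tract and 5 a tandem repeat, and 2 overlapped a coding gene, among them VPS16, a subunit of the complexes that tether membranes to lysosomes. At 7q, by contrast, 19 of 23 held a tandem repeat and 14 overlapped a coding gene, PTPRN2 or DYNC2I1.

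The ends with the highest counts of ERCC6L2-/--specific peaks were 7p (14 of 76 ERCC6L2-/- peaks), 8q (10 of 69), 18q (9 of 54), 20q (9 of 60), 9q (8 of 44) and 14q (7 of 24), and 16q and 19p tied with 14q at 7. The control list had 7, 4, 8, 7, 8 and 4 list-specific peaks there, so at 18q, 20q and 9q the lists differed by at most 2. At 7p the 14 peaks lay 0.0102 to 2.84 Mb from the end and 10 overlapped coding genes, among them PRKAR1B, a regulatory subunit of protein kinase A, and SUN1, a protein of the inner nuclear membrane. At 8q, 8 of 10 held a tandem repeat, 6 were at least 60% GC, and 5 lay in TOP1MT, the mitochondrial topoisomerase, or ARHGAP39. At 17q the counts ran the other way, with 9 control-specific peaks of 44 and 0 of 35 ERCC6L2-/--specific ones, which allows up to 8.57%.

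**Figure D3:**
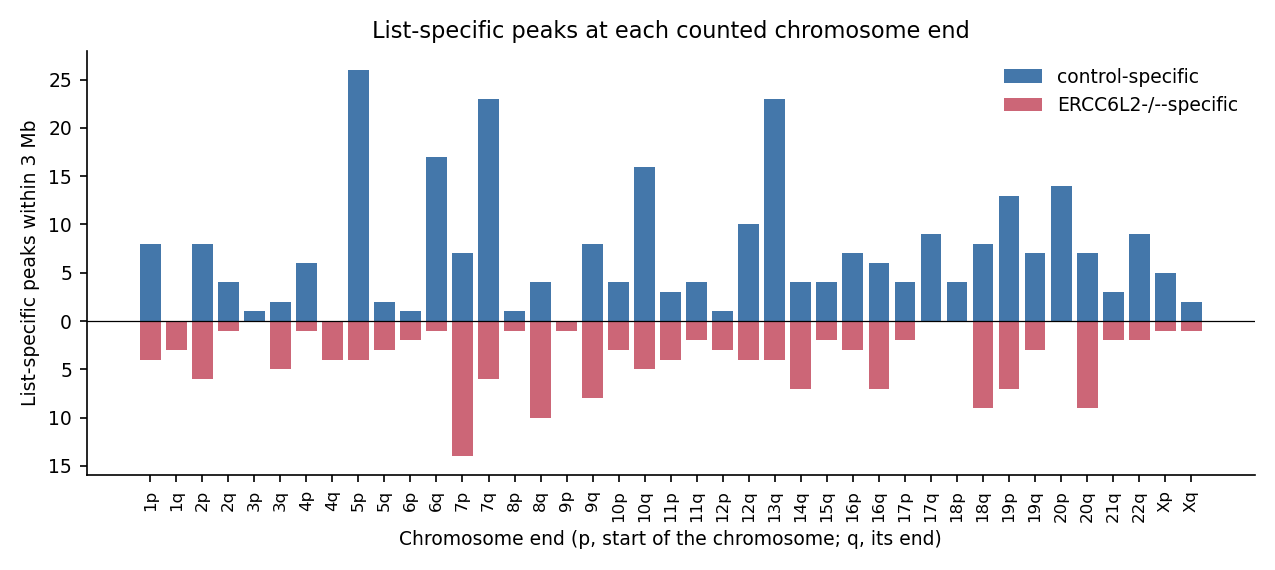
Bars give the number of list-specific peaks within 3 Mb of each of the 41 counted chromosome ends, control-specific upward and ERCC6L2-/--specific downward. The tallest control bars are 5p (26), 7q and 13q (23 each), and the longest ERCC6L2-/- bar is 7p (14).

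List-specific peaks were chained into runs at gaps of up to 100 kb. Peaks are dense in the zone, and whether list-specific peaks cluster more than shared ones was not tested. The runs named are the largest, beside list-specific shares of 20.9% of all control and 12.4% of all ERCC6L2-/- members. The largest control run was 9 list-specific peaks at chr13:113798084-114033422, where the control list held 14 peaks and the ERCC6L2-/- list 6. It spans TMEM255B, GAS6, C13orf46 and RASA3. There were 4 runs of 6. One lay at chr10:132554505-132713187 in INPP5A, with 7 control peaks against 1, and one at chr7:157429963-157544395 reached into PTPRN2, again with 7 against 1. The others were at 5p. At chr5:83372-262342, which spans PLEKHG4B, LRRC14B, CCDC127, ENSG00000286001 and SDHA, there were 7 against 2, and at chr5:2301551-2542085, outside coding genes, 9 against 4. The largest ERCC6L2-/- runs had 4 list-specific peaks. One was at chr20:62337064-62585554, which spans LAMA5, RPS21, CABLES2, RBBP8NL and GATA5, with 11 ERCC6L2-/- peaks against 7. The other was at chr8:144600718-144662987 in ARHGAP39, with 5 against 1.

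Tandem repeats were the main feature of subtelomeric peaks in every class. A tandem repeat was counted where at least 80 of 100 bases equalled the base 1 period (10 to 100 bases) downstream. This held for 72.5% of control and 73.6% of ERCC6L2-/- members, against 45.1% and 49.3% in the rest of the arms. Near the 3 Mb line the change was smaller. From 2 to 3 Mb it held for 66.1% of control and 65.9% of ERCC6L2-/- peaks, and from 3 to 5 Mb for 61.1% and 63.8%. Of 700-base tiles laid over the reference, 7.18% held one in the subtelomeres and 0.993% in the rest of the arms. Among control members, 63.5% of list-specific and 74.8% of shared peaks held one, a difference of -11.3 points (-17.6 to -5.33), which became -8.33 (-19.2 to 1.15) in a zone of 1 Mb and -6.13 (-12.6 to 0.34) with the central 300 bases alone. Among ERCC6L2-/- members 69.5% and 74.1% did, a difference of -4.67 points (-12.7 to 2.58). The sign of the ERCC6L2-/- difference turned at a stricter identity of 90%, to 10.6 points (2.17 to 18.7), for central bases, to 4.81 points (-3.59 to 12.7), and in a zone of 2 Mb, to 1.23 points (-8.22 to 8.85). At an identity of 70% it was -9.68 points (-16.4 to -4.43) and in a zone of 5 Mb -9.21 points (-16.04 to -2.73), both with intervals below 0.

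The kind of repeat differed between the list-specific classes. Tandem repeats whose smallest period was under 10 bases, microsatellites by type, were in 16.8% of control-specific and 20.3% of shared control peaks but in 3.90% of ERCC6L2-/--specific peaks (6 of 154), against 19.9% of shared ERCC6L2-/- peaks. Telomere repeats also have a unit under 10 bases and were not set apart here. They were in 31 of 1081 shared control and 31 of 1083 shared ERCC6L2-/- peaks, and in 0 of 285 control-specific and 2 of 154 ERCC6L2-/--specific peaks. Tandem repeats whose smallest period was 10 bases or more, minisatellites by type, were in 46.7% of control-specific and 65.6% of ERCC6L2-/--specific peaks, a difference of 18.9 points (9.20 to 27.98). Shared peaks stood between them, at 54.6% (control) and 54.3% (ERCC6L2-/-). In the rest of the arms the minisatellite shares were 13.0% of control-specific and 17.3% of ERCC6L2-/--specific peaks. The limit of 10 bases was set with the values known.

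Purine tracts, which can fold into triple-stranded DNA, were less common in subtelomeric peaks than in peaks of the rest of the arms, but more common than in subtelomeric tiles. They were in 9.15% of control and 6.95% of ERCC6L2-/- members, against 35.5% and 27.6% in the rest of the arms, while tiles held them at 3.85% and 4.23%. From 2 to 3 Mb, 9.79% of control and 7.63% of ERCC6L2-/- peaks held tracts, and from 3 to 5 Mb 19.2% and 15% held tracts. Control-specific members held them more often than shared ones, 18.2% (52 of 285) against 6.75%, a difference of 11.5 points (7.12 to 16.6), which fell to 6.67 (0.55 to 15.3) in a zone of 1 Mb. For ERCC6L2-/--specific members the interval of the difference included 0, 7.79% (12 of 154) against 6.83%, a difference of 0.96 points (-2.72 to 6.46). Between the list-specific classes the ERCC6L2-/- share was lower by 10.4 points, a difference of -10.4 points (-16.4 to -3.76).

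G-quadruplex motifs, 4 runs of at least 3 G with loops of up to 7 bases on either strand, were in 29.5% of control-specific and 22.3% of shared control members, a difference of 7.18 points (1.56 to 13.2), which fell to 2.34 (-7.30 to 13.4) in a zone of 1 Mb and to 4.02 (-0.55 to 9.26) with the central 300 bases alone. They were in 16.9% of ERCC6L2-/--specific and 21.98% of shared ERCC6L2-/- members, a difference of -5.09 points (-10.8 to 2.02), and of -9.87 points (-15.9 to -1.46) in a zone of 2 Mb. Subtelomeric tiles held them at 17.1% and tiles of the rest at 6.65%. Peaks went the other way, at 23.8% of control and 21.3% of ERCC6L2-/- members against 29.7% and 26.8% in the rest of the arms. There, list-specific peaks held them more often than shared ones in both lists, 34.8% against 26.5% (control) and 33.2% against 25.6% (ERCC6L2-/-). The share of peaks with the motif was highest at the ends. Within 0.1 Mb, 61.3% of 31 control and 62.5% of 32 ERCC6L2-/- peaks held it, and TTAGGG arrays match the motif by their sequence.

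ERCC6L2-/--specific members were richer in GC than the other classes. Their median GC content was 58.4% (quartiles 52.2 and 63.3%), against 52.05% for control-specific, 52.2% for shared control and 52.4% for shared ERCC6L2-/- members, and 47.7% for tiles. At least 60% GC was met by 66 of 154 ERCC6L2-/--specific members, 42.9% (35.3 to 50.7%), against 15.4% of control-specific members, a difference of 27.4 points (18.6 to 36.1). It was met by 14.9% and 15.1% of shared members of the 2 lists and by 15.2% of tiles. In the rest of the arms 13.4% of ERCC6L2-/--specific and 3.10% of control-specific peaks met it. The limit of 60% was chosen with the values known. GC content can change amplification and recovery of reads, and its part in which peaks were called was not tested.

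**Figure D4:**
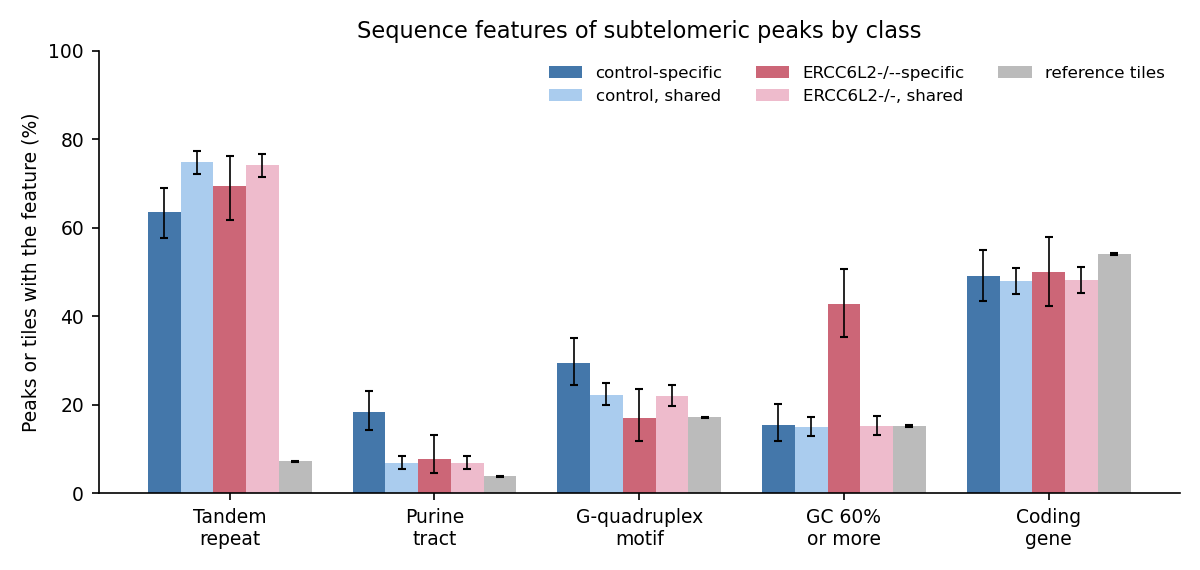
Bars give the share of peaks (%) with a tandem repeat, a purine tract of at least 30 bases, a G-quadruplex motif, a GC content of at least 60% or an overlap with a protein-coding gene, for the 4 classes of subtelomeric peaks and for 700-base tiles of the same zones, with 95% Wilson intervals. Tandem repeats are in 63.5 to 74.8% of the peaks of each class against 7.18% of tiles, and the ERCC6L2-/--specific bar stands apart at high GC, at 42.9%.

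Split by sequence, the gap between the subtelomeres and the rest of the arms lay in some kinds of peak. Among control peaks with a tandem repeat and no tract, 16.5% of 911 subtelomeric and 17.8% of 2108 other peaks were list-specific, a difference of -1.37 points (-4.20 to 1.62). Among control peaks with a tract, 41.6% of 125 and 52.9% of 2575 were, a difference of -11.3 points (-19.8 to -2.36). Among control peaks with neither, 25.2% of 330 and 42.6% of 2571 were, a difference of -17.5 points (-22.3 to -12.2). In the ERCC6L2-/- list, peaks with a tandem repeat and no tract were list-specific more often in the subtelomeres, 12.2% of 860 against 8.24% of 1893, a difference of 3.97 points (1.55 to 6.59). With neither feature they were so less often, 12.7% of 291 against 20.5% of 1894, a difference of -7.82 points (-11.7 to -3.16).

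Many members hold words of 50 bases that occur more than once in the reference, inside the same peak or elsewhere. The median copy number of a peak's words was above 1 in 39 of 285 control-specific and 209 of 1081 shared control members. It was above 1 in 49 of 154 ERCC6L2-/--specific and 209 of 1083 shared ERCC6L2-/- members. At least 90% of the 50-base words of a peak had a single copy in the reference in 63.9% of control-specific, 56.7% of shared control, 44.2% of ERCC6L2-/--specific and 56.97% of shared ERCC6L2-/- members, against 73.4% and 71.6% of all control and ERCC6L2-/- peaks of the rest of the arms. With such peaks alone, the list-specific share of subtelomeric ERCC6L2-/- peaks was 9.93% in place of 12.4%. Copies inside a peak were not counted apart from copies elsewhere. Reads from repeated copies can be placed at any of them, and how they were handled is not given in the sources used here.

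Telomere-type repeats were peaks in both lists. At least 2 TTAGGG copies in a row were in 31 control members, all shared, and in 33 ERCC6L2-/- members, 31 of them shared. No control-specific peak held them, which allows up to 1.05% of 285. All of these peaks were at the score ceiling. They lay at 26 ends in each list, and 15 control and 16 ERCC6L2-/- peaks lay within 20 kb of the end. The G-rich strand ran toward the chromosome end in 30 of 31 control and 32 of 33 ERCC6L2-/- peaks. The peak with most copies was at 5p, chr5:10025-11781 in the control list, with 291.

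Both ERCC6L2-/--specific peaks of this kind can be named. One lay at the very start of the known sequence of 7p, where the nearest control peak lay 6.04 kb away. The other was chr9:138159613-138160066 with 19 copies, 234878 bases from the end of 9q. With 31 shared peaks beside them, the lists differ here by these 2 peaks.

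Seen from the reference, arrays of at least 20 TTAGGG copies numbered 49 in the subtelomeres, and some peaks span more than 1 array. A control peak covered 39 of them, an ERCC6L2-/- peak 40, peaks of both lists 39 and neither list 9. The only array covered in 1 list alone, the ERCC6L2-/- list, was that of 7p. In the rest of the arms there were 7 such arrays, of which 6 met a control peak and 4 an ERCC6L2-/- peak. The 2 arrays with a control peak alone were both at 17q, with 39 and 21 copies, 4253112 and 4252325 bases from the end.

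At the tip of the known sequence, a peak was present where the telomere array of the reference was long. The outer bases of each end are unknown in hg38, 10000 bases at 26 of 41 ends. In the 1000 bases inside this gap, 20 ends had at least 20 hexamer copies, and 15 of these had a peak in both lists, while 7p, with 36 copies, had one in the ERCC6L2-/- list alone. The 4 without any were 2p with 28 copies, 4p with 27, 19q with 22 and 2q with 21. Of 11 ends with 1 to 19 copies, 0 had a peak in either list, which allows up to 27.3%. The limit of 20 copies was set with the values known. Of 10 ends with no copy, 20p had one in both lists. It was the widest member of the control list, at chr20:60283-67114, 6832 bases wide, with 20.1 kb to the nearest coding gene, DEFB125. The real telomeres of U2OS cells are not in the reference, and reads from them can be placed on these short arrays, so a peak here does not locate the label to 1 end.

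**Figure D5:**
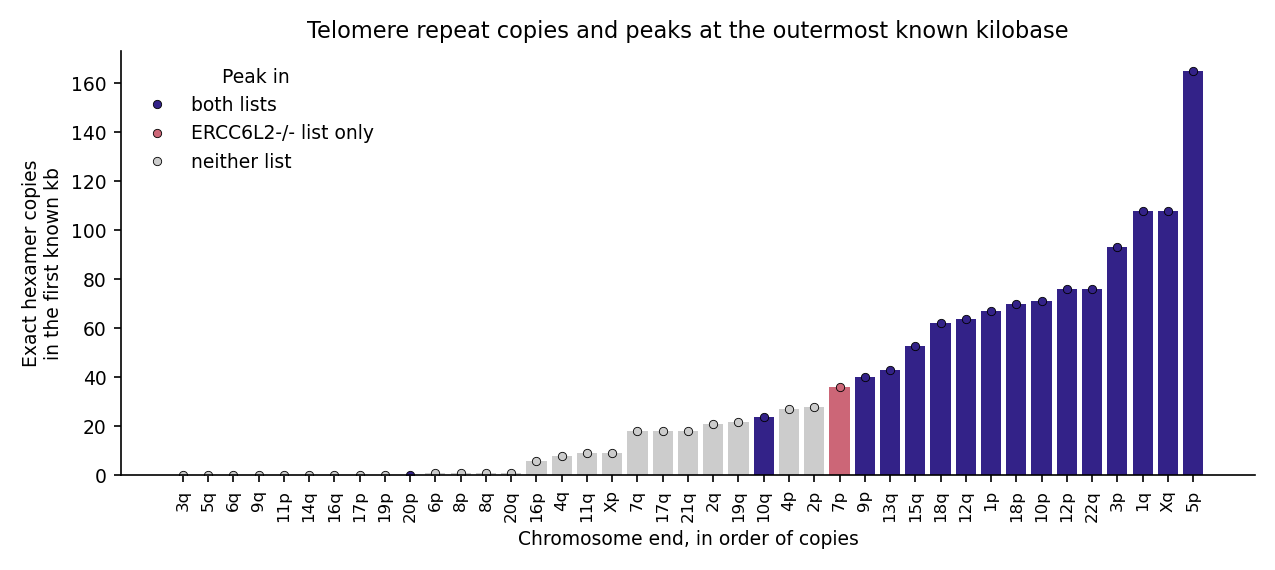
Bars give the number of exact TTAGGG or CCCTAA copies in the outermost known 1000 bases of each of the 41 counted ends, in order of copies, with the colour showing in which list a peak overlaps those bases. All ends with 40 or more copies have a peak in both lists, 7p with 36 has one in the ERCC6L2-/- list alone, and among ends with fewer copies 10q and 20p have one in both.

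The share of peaks in genes varied little between the classes. A protein-coding gene was overlapped by 49.1% of control-specific, 48.0% of shared control, 77 of 154 ERCC6L2-/--specific and 48.1% of shared ERCC6L2-/- members, against 54.2% of tiles. The list-specific minus shared difference was 1.11 points (-5.37 to 7.61) in the control list and 1.89 points (-6.46 to 10.2) in the ERCC6L2-/- list. Exons of any kind were met by 35 of the 659 control and 31 of the 598 ERCC6L2-/- peaks in coding genes. Coding exons were met by 22 of 1366 control and 17 of 1237 ERCC6L2-/- members, and 27 and 19 lay within 1 kb of the start of a coding gene, 1.98% and 1.54% against 3.51% of tiles. Of 1741 coding genes with their midpoint in the zone, 378 (21.7%) were overlapped by a member. Of 379 coding genes with a member peak, wherever their midpoint, control-specific peaks were in 102 and ERCC6L2-/--specific peaks in 70, with 15 in both sets. Whether this overlap differs from that of unrelated sets was not tested.

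The genes with most peaks included some of the longest of the zone, but other long genes held few. OPCML, at 1118 kb, held 5 control and 4 ERCC6L2-/- peaks, and DLGAP2, at 971 kb, held 1 and 0. PTPRN2, a receptor-type phosphatase of secretory vesicles that spans 1049 kb at 7q, held 43 control and 33 ERCC6L2-/- peaks, of which 13 and 3 were list-specific and 30 were shared in each list. CDH4, a cadherin at 20q, held 20 and 19, with 2 and 1 list-specific. TAFA5, a secreted chemokine-like protein at 22q, held 11 and 10, and RIMBP2, a scaffold of presynaptic release sites at 12q, held 10 of each. TSNARE1 at 8q held 10 of each, all shared. SMOC2, a matrix protein at 6q, held 10 and 7, with 3 control-specific and no ERCC6L2-/--specific. PRKAR1B and GALNT9 followed, with 7 or 8 peaks in each list and at most 1 list-specific. LMF1, MCF2L, SNTG2, MAD1L1 and ENSG00000286192 tied behind them at 13 peaks over both lists. Of these, LMF1 and MCF2L had at most 1 list-specific peak in a list, SNTG2 had 4 control-specific and 1 ERCC6L2-/--specific, and MAD1L1, which ENSG00000286192 overlaps, had 1 and 2.

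Control-specific peaks were most numerous in PTPRN2 (13), INPP5A (6) and SNTG2 (4), followed by THBS2, GAS6, SMOC2, RASA3, ATP11A and PLEKHG4B (3 each). INPP5A, a phosphatase that ends inositol phosphate signals, held 8 control and 2 ERCC6L2-/- peaks. THBS2, a thrombospondin of the matrix, held 5 and 2. GAS6, the ligand of the TAM receptor kinases, held 3 control peaks and no ERCC6L2-/- peak. ERCC6L2-/--specific peaks were most numerous in ARHGAP39 (4) and PTPRN2 (3), followed by CUL4A, C7orf50, ADGRD1, MAD1L1 with ENSG00000286192, GNG7 and SMYD3 (2 each). Of these, ADGRD1 and GNG7 also held 2 control-specific peaks each. ARHGAP39 held 6 ERCC6L2-/- and 2 control peaks, each with a tandem repeat. CUL4A, the scaffold of a ubiquitin ligase, held 3 ERCC6L2-/- and 1 control peak.

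Counts of list-specific peaks in named groups of subtelomeric genes stand against 20.9% of all control and 12.4% of all ERCC6L2-/- members. Most groups held few peaks, and whether the groups differ was not tested. Of 3 telomere biology genes, 2 held a peak, 3 in the control list with none list-specific and 4 in the ERCC6L2-/- list with 1. TERT, the catalytic subunit of telomerase, held 1 shared peak in each list and 1 ERCC6L2-/--specific peak, RTEL1, a helicase that unwinds telomere loops, held 2 shared peaks in each list, and DKC1 held none. Of 11 genome and chromatin maintenance genes in the zone, 4 held peaks, 11 control with 2 list-specific and 13 ERCC6L2-/- with 4. MAD1L1, a spindle checkpoint protein, held 6 control and 7 ERCC6L2-/- peaks, of which 1 and 2 were list-specific, EHMT1, a histone H3 methyltransferase, held 4 of each with 1 list-specific in each, CHFR held 1 shared peak in each list, and FANCA, of the Fanconi repair pathway, held 1 ERCC6L2-/--specific peak.

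Of 14 signalling and growth genes, 5 held peaks, 12 in the control list with 7 list-specific and 6 in the ERCC6L2-/- list with none, again beside the 20.9% and 12.4% of all members. GAS6 and RASA3, which lie in the 13q run above, gave 3 control-specific peaks each and SKI 1. Of 12 channel and synapse genes, 8 held peaks, 57 control with 15 list-specific and 47 ERCC6L2-/- with 5, most of them in PTPRN2. Of 9 mucin and clotting genes, 5 held peaks, 7 control, all shared, and 8 ERCC6L2-/- with 1 list-specific, in MUC2, a secreted gel-forming mucin. Of 5 alpha-globin genes, HBM held 1 control-specific peak. In the D4Z4 region of 4q, DUX4 held 2 shared peaks in each list and FRG1 and FRG2 none.

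Of 15 genes of the first pseudoautosomal region, which X and Y share at the start of both, 5 held peaks. There were 6 control peaks, of which 4 were list-specific (P2RY8 2, SHOX 1, CSF2RA 1), and 3 ERCC6L2-/- peaks, of which 1 was (GTPBP6). The 14 peaks at Xp of both lists had words with a median of at least 2 copies, since the reference holds the region on both chromosomes, and reads of it can be placed on either.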

How the data were processed

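Nascent DNA was labelled with BrdU in 3 control and 3 ERCC6L2-/- U2OS samples. The authors checked reads with FastQC, trimmed them with Trim Galore, aligned them with Bowtie2 to UCSC hg38 (patch 12), removed duplicates with Picard, called peaks with MACS2 in each sample, merged the 3 replicates of a genotype with MSPC, and derived unique lists with bedtools. Tool versions, thresholds and the handling of reads with several placements are not given in the sources used here. The deposited consensus lists give each peak's position and a score, its −log10 p-value after merging. The deposited unique lists (3371 control, 1614 ERCC6L2-/-) give positions and were equal to the consensus peaks that overlap none of the other list. Read counts are not part of these lists. Depth is therefore unknown, and precision follows from how many peaks a share rests on.

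The genotype labels gave the groups. Sequences, lengths and GENCODE release 44 genes are those of hg38, read with pysam 0.24.0 and analysed in Python with numpy, pandas and numba. Positions are 1-based. Alpha-satellite was defined as windows of 1000 bases with at least 50% identity about 171 bases downstream, joined into runs of at least 10 kb near the longest run of a chromosome (73.9 Mb). Tiles were 700 bases, all in the subtelomeres and every 20th in the rest. Words of 50 bases were counted on both strands of the reference without alternate contigs. Shares have 95% Wilson and differences 95% Newcombe intervals. Ratios of density have intervals from the peak counts on the log scale, and a count of 0 was given a limit of 3 counts. These were fixed in place of a test, since each genotype has 1 merged list and neighbouring peaks are not independent. The measures were tested on simulated data.

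The members and gene lists were chosen with earlier results of these data known. Named were the 6 ends with most list-specific peaks of each list, the 10 coding genes with most member peaks and the 5 with most list-specific peaks of each list, the peaks of each class with the highest score, nearest to an end, with the longest repeat or tract or with most TTAGGG copies (the last 3 outside chromosome 8), and gene lists. Other items were named after their values were seen. The alternatives were zones of 1, 2 and 5 Mb, other definitions of shared, of the rest of the arms and of each feature, higher-scoring or single-copy peaks, chained peaks, and each chromosome left out. Some sequences of member peaks are not reported here.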

Additional observations from a re-analysis of the deposited data

How the results depend on the processing

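No paired analysis was possible because the deposited lists merge the 3 replicates of a genotype and hold no values per replicate, and for the same reason no replicate could be left out. Of 88 values under other settings, 68 stayed within the 95% interval of the reported value, 19 moved outside it and 1 reversed, where a reversal was counted only for a value whose own interval excluded 0, and all 322 values with 1 chromosome left out stayed within it. The reversal was the ERCC6L2-/- difference in list-specific share, which became 0.43 points against peaks 3 to 10 Mb from an end, where the control difference was -8.63. With alpha-satellite kept these differences were -14.96 (control) and -8.29. Among peaks at or above the median score, all at the ceiling, the subtelomeric share was 10.95% (control) and 5.51%, and the control difference was -15.08. Among single-copy peaks the ERCC6L2-/- share was 9.93% and its difference -5.58. In a zone of 1 Mb the ERCC6L2-/- share was 14.5% and its difference -0.24 (-3.51 to 3.68), the density ratios were 3.69 and 4.63, and the control tract difference was 6.67. Density ratios were 1.85 and 2.09 against 3 to 10 Mb, and 3.83 and 4.89 with chained peaks counted once. Differences whose interval included 0 also changed sign. The ERCC6L2-/- tandem repeat difference was 10.6 points at 90% identity, 4.81 for central bases and 1.23 in a zone of 2 Mb. The ERCC6L2-/- tract difference was -0.39 and -0.79 in zones of 1 and 2 Mb, the ERCC6L2-/- gene difference -2.90 in a zone of 1 Mb, and the control gene difference -1.09 with all annotated genes and -0.69 in a zone of 5 Mb. At 70% identity and in a zone of 5 Mb the ERCC6L2-/- tandem repeat difference was -9.68 and -9.21, with intervals below 0. The cause of these moves was not tested. With 1 chromosome left out, the control share ranged from 20.05 to 21.62% and the ERCC6L2-/- share from 12.09 to 12.89%, their differences from the rest from -19.02 to -17.35 and from -3.33 to -2.39, and the density ratios from 4.001 to 4.48 and from 5.02 to 5.65. The ERCC6L2-/- tract difference (-0.48 without chromosome 8) and the control gene difference (-0.06 without chromosome 6, -0.02 without chromosome 10) changed sign, with intervals that included 0 throughout. Without chromosome 19 the control tract difference was 9.21. With no depth, replicate values or read placements, these counts describe 2 lists, and a peak missing from a list can lie just under its threshold.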
